A study of Mus musculus with 90 samples.

Results

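The 8 genes described here encode the peptides and receptors by which the hypothalamus sets food intake: Agrp, Npy, Hcrt, Pmch, Pomc, Cartpt, Mc4r and Lepr. They were chosen by name and not by a measured value, and all 8 were among the 20414 genes of an expression table that covered 15 tissues of female C57BL/6 mice in estrus or diestrus. Each tissue had 3 libraries per phase, 90 in all, and the phase had been read from stained vaginal smears. The study also measured serum estrogen and progesterone to help tell the phases apart. By the study's methods the mice were C57BL/6J and the tissues of a phase came from the same 3 mice, so libraries of different tissues are not independent. The labels gave an age of 10 weeks for every mouse and named no treatment or genetic change in either phase. Values were FPKM, read fragments scaled to transcript length and to library size, so levels of different genes are compared per length.

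Neurons of the arcuate nucleus that make Agrp and Npy drive feeding, and neighbouring neurons that make Pomc and Cartpt restrain it. Pomc is cut into melanocortin peptides that activate the receptor Mc4r, Agrp blocks the same receptor, and leptin from fat acts on both kinds of neuron through Lepr. Hcrt (the orexin precursor) and Pmch (the precursor of melanin-concentrating hormone) are made by neurons of the lateral hypothalamus. Both promote feeding, and Hcrt also promotes wakefulness. Food intake of female rodents is known to vary over the estrous cycle.

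The coding sequences below show how the peptides lie in their precursors, since the measured quantity was the precursor's mRNA and not the peptide. They came from the GENCODE transcripts of GRCm38 and are written 5′ to 3′. The Pomc precursor held the 4-codon melanocortin core 3 times, and each copy is shown in capitals in the stretch between the neighbouring runs of adjacent basic codons, the kind of site that prohormone convertases cut.
Pomc core 1: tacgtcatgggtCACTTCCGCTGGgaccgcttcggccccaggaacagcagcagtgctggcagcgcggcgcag
Pomc core 2: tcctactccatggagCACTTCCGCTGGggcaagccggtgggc
Pomc core 3: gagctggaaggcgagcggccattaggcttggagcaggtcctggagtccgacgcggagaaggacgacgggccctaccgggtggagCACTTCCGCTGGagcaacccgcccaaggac
Agrp, the blocker of the receptor these cores activate, is shown from the first of its last 10 cysteine codons to the stop codon, with the cysteine codons in capitals.
Agrp cysteine-rich end: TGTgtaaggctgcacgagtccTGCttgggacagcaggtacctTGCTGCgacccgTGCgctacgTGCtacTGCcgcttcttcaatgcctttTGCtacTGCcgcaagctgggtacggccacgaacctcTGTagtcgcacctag
Npy, which had the widest range of levels among tissues, is shown whole, with the runs of adjacent basic codons in capitals.
Npy coding sequence: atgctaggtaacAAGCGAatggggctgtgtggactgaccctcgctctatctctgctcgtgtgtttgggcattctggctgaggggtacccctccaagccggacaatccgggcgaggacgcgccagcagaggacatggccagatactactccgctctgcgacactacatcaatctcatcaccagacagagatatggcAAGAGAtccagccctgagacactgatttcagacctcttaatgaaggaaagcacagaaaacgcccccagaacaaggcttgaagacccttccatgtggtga
The precursors of the lateral hypothalamus, the members with the highest means in that tissue, are shown for Hcrt over the 90 codons that end with the last run of adjacent basic codons and for Pmch from the last run of adjacent basic codons to the stop codon, with those runs in capitals.
Hcrt peptide region: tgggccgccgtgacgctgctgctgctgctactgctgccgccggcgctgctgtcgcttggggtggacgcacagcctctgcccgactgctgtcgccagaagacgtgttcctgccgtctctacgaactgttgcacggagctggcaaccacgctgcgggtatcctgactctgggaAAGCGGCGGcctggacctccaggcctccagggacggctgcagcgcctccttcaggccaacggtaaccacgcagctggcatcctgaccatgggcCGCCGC
Pmch last stretch: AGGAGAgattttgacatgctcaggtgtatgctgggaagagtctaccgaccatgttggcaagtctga

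By the GENCODE M21 annotation of GRCm38, the genes lay apart from each other on 8 chromosomes. Agrp lay at chr8:105566698-105637393 on the minus strand, and 11.3% of its exon bases were shared with exons of Ctcf on the opposite strand and of Gm5914 on the same strand. Npy lay at chr6:49822710-49829507, Pomc at chr12:3954951-3960642 and Lepr at chr4:101717404-101815352, all on the plus strand. Cartpt at chr13:99898489-99901091, Hcrt at chr11:100761069-100762931 and Mc4r at chr18:66857704-66860506 lay on the minus strand, and Mc4r had 1 exon. Pmch lay at chr10:88091072-88092375 on the plus strand, and 58.1% of its exon bases were shared with Parpbp on the opposite strand. The library kit named in the study's methods did not mark strand, so reads of Pmch and Parpbp, or of Agrp and Ctcf, could not be told apart there.

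The hypothalamus libraries carried the tissue's own genes. Otp, a transcription factor of neuroendocrine neurons, was at 26.0 to 30.8 FPKM against 0.02 to 0.75 in cerebrum, and Avp, the vasopressin gene, was at 310.4 to 516 against 0.64 to 9.98. Of 16 hypothalamic transcription factors tested, 14 were called higher in hypothalamus than in cerebrum, against 4.73% of all 13280 genes tested. Depth, approximated from the smallest steps between FPKM values, was 16300000 to 16900000 reads in the hypothalamus libraries and 9280000 to 18200000 in 89 of the 90 libraries. BAT estrus 3 had 78000 reads and 12048 genes at 0, so its zeros carry little information.

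Hypothalamus libraries stood apart in ways that touch members. Estrus 2 held high levels of pituitary hormone mRNA, with Prl (prolactin) at 21607 FPKM against 9.29 to 262 in the other 5, Gh (growth hormone) at 9199.6 against 3.65 to 95.7, and the summed FPKM of 16 pituitary markers at 31268 against 30.2 to 379. Of these markers 9 were tested between the phases, all 9 had a log2 difference above 0 (median 1.05), and 0 were called by limma. An unadjusted p under 0.05 was reached by 2 of them, against 13.2% of all genes tested. The pituitary is itself a major source of Pomc. Estrus 3 held the highest level of each of Ucn, Slc6a3, En1 and Slc10a4, genes of midbrain neurons, with Ucn at 17.4 FPKM against 0 to 0.3 and Slc6a3 (the dopamine transporter) at 42.2 against 0.68 to 7.46. The summed FPKM of 8 midbrain genes, a list chosen after the values were seen, was 177 in estrus 3 and 36.4 to 56.1 in the others. Values without these libraries are given with the results they touch.

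Each peptide precursor of the lateral hypothalamus was lower on average in estrus than in diestrus, and neither difference was called. Pmch was at 508, 573 and 555 FPKM in the estrus libraries and 575, 635 and 725 in diestrus. All 3 estrus libraries lay below all 3 diestrus libraries, by a gap of 573 to 575. Hcrt was at 229.9, 254 and 247 FPKM in the estrus libraries and 333, 244 and 359.9 in diestrus, and diestrus 2 lay within the estrus range. In bulk tissue, fewer cells that express a gene and less of its RNA per cell cannot be told apart.

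On the log2(FPKM + 1) scale, the limma estrus minus diestrus difference of Pmch was -0.24 ± 0.09 (SE), with an adjusted p of 0.331. That of Hcrt was -0.34 ± 0.13, with an adjusted limma p of 0.341. Without diestrus 3, the highest library for both genes, the difference was -0.15 for Pmch and -0.23 for Hcrt. The ratio of Hcrt to Pmch FPKM ran from 0.385 in diestrus 2 to 0.579 in diestrus 1 and was 0.444 to 0.453 in the 3 estrus libraries. Otp, made by other neurons of the tissue, was at 27.8, 27.1 and 27.2 FPKM in the estrus libraries and 30.8, 26.0 and 30.6 in diestrus.

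Neither of the arcuate peptides that drive feeding was called between the phases. Agrp was at 8.0, 6.47 and 15.7 FPKM in the estrus libraries and 5.01, 7.01 and 8.60 in diestrus. Npy was at 63.7, 49.5 and 102 FPKM in the estrus libraries and 59.6, 69.1 and 64.2 in diestrus. Estrus 3 was the highest library for both genes, and the rest of the estrus values overlapped those of diestrus. The log2 difference was 0.43 ± 0.29 for Agrp (adjusted p = 0.559) and 0.09 ± 0.22 for Npy (adjusted p = 0.889) by limma. Without estrus 3 they were 0.08 for Agrp and -0.19 for Npy.

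The precursors that restrain feeding each had 1 estrus library far above the others. Pomc was at 37.2, 711 and 39.2 FPKM in the estrus libraries and 23.4, 22.1 and 68.7 in diestrus. The highest value was that of estrus 2, the library with the high pituitary mRNA, and diestrus 3 exceeded the remaining estrus libraries. The log2 difference of Pomc was 1.6 ± 1.07 (limma adjusted p = 0.549) with all libraries and 0.20 without estrus 2.

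Tbx19, a transcription factor of the pituitary cells that make Pomc, was at 3.05 FPKM in estrus 2 and 0.46 to 0.98 in the other libraries, and Pou1f1, of the pituitary cells that make Prl and Gh, was at 4.49 against 0 to 0.15. Among the other 5 libraries, diestrus 3 had the highest Pomc with Gh at 95.7 FPKM, whereas diestrus 1 and diestrus 2 had the lowest Pomc with Gh at 3.65 and 10.2. Estrus 1 and estrus 3 had Gh at 84.8 and 89.9 FPKM. The part of pituitary RNA in the Pomc level of these libraries was not tested.

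Cartpt was at 75.8, 82.7 and 201 FPKM in the estrus libraries and 71.5, 66.5 and 88.7 in diestrus. Estrus 3 was again the highest library, and diestrus 3 lay above the other estrus libraries. Cartpt is also abundant in midbrain cells that make Ucn, and the log2 difference was 0.52 ± 0.33 (limma adjusted p = 0.529) with all libraries and 0.08 without estrus 3. The part of midbrain RNA in the Agrp, Npy and Cartpt levels of estrus 3 was not tested.

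The receptors were expressed at 0.88 to 2.01 FPKM in the hypothalamus. Mc4r was at 1.65, 1.29 and 0.88 FPKM in the estrus libraries and 2.01, 1.90 and 1.72 in diestrus, and all estrus libraries lay below all diestrus libraries. Lepr was at 1.57, 1.37 and 1.21 FPKM in the estrus libraries and 1.23, 1.45 and 1.26 in diestrus, so the phases overlapped. The log2 difference was -0.35 ± 0.13 for Mc4r (adjusted p = 0.339) and 0.04 ± 0.10 for Lepr (adjusted p = 0.891) by limma. Without estrus 3, the lowest library for Mc4r, the difference was -0.22. One read was worth about 0.0219 FPKM of Mc4r at the approximated depth.

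**Figure D1:**
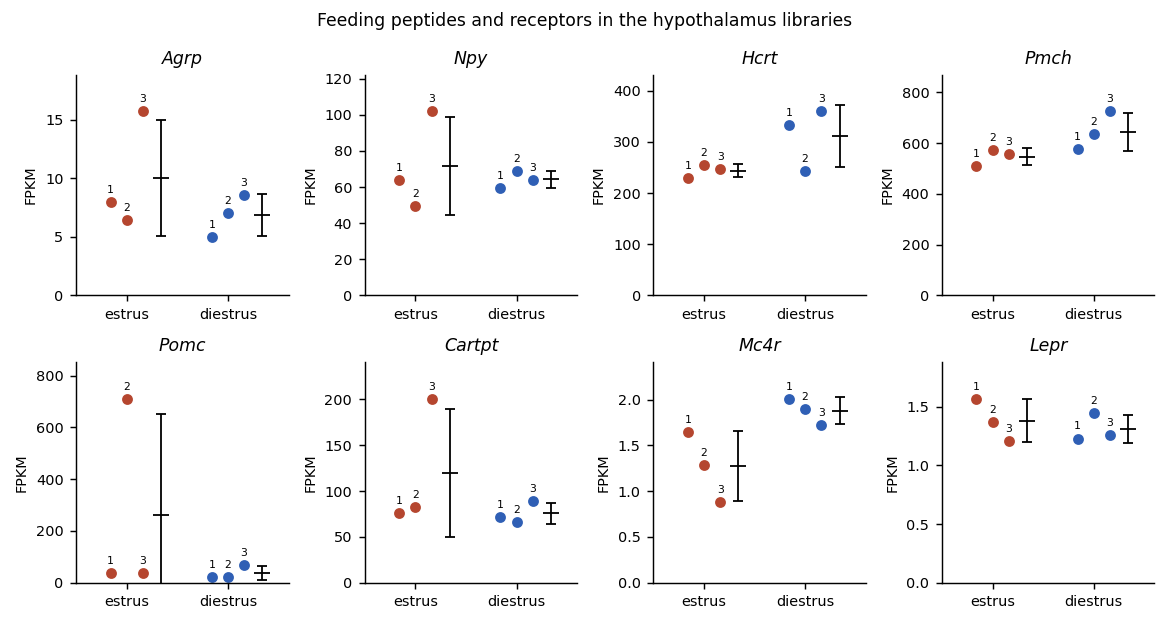
Each panel plots the FPKM of 1 gene in the 6 hypothalamus libraries, with the replicate number above each point and the mean with SD (n = 3) to the right of each phase; the axis starts at 0, which cuts the lower bar of Pomc in estrus. Estrus 2 stands alone for Pomc at 711 FPKM, estrus 3 is highest for Agrp, Npy and Cartpt, and the phases do not overlap for Pmch and Mc4r.

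Of the 8 members, 0 were called between the phases in hypothalamus at the study's limits of an absolute log2 fold change of 1 and an adjusted p of 0.05, and 0% of the 13400 genes tested were called by limma. The study set these limits on another test, DEGSeq, and reported differentially expressed genes for each tissue. It also reported enrichment of neuroactive ligand-receptor interaction in tissues that included hypothalamus, so the counts here are not those of the study's test. An unadjusted p under 0.05 was reached by 3 members (Pmch, Mc4r and Hcrt, all lower in estrus), against 13.2% of all genes tested. The phases did not overlap for 2 members, both lower in estrus, against 9.64% of all genes in that direction, and for 0 members higher in estrus, against 9.96%. An exact permutation test of 3 against 3 libraries cannot give a p below 0.1. The median log2 difference of the 8 members was 0.07, beside 0.01 for all genes tested.

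**Figure D2:**
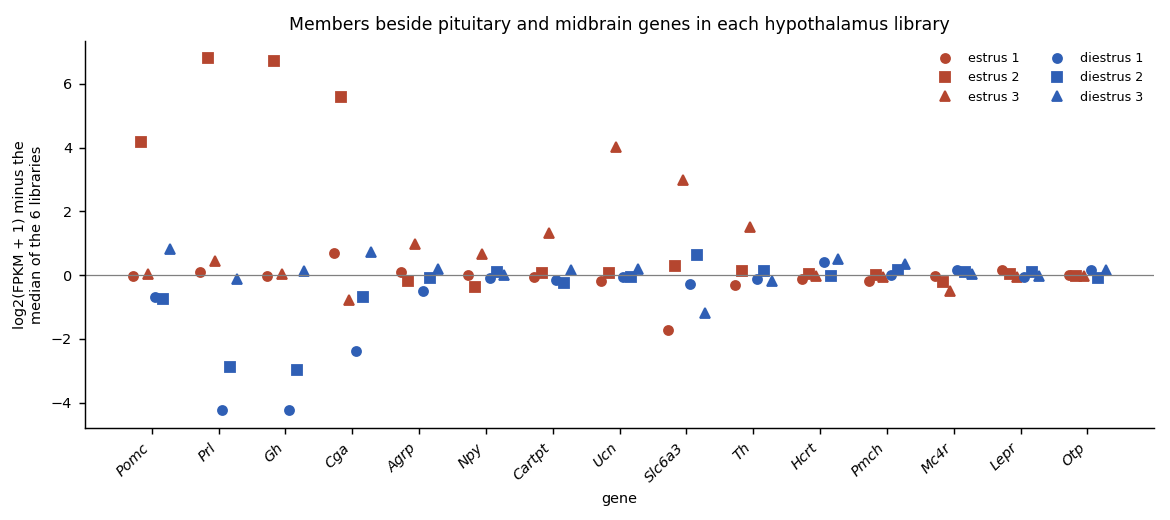
For each gene on the horizontal axis, the points show log2(FPKM + 1) of each hypothalamus library minus the median of the 6, in red for estrus and blue for diestrus, with circles, squares and triangles for replicates 1 to 3. The estrus 2 square stands above the rest for Pomc, Prl, Gh and Cga, and the estrus 3 triangle for Agrp, Npy, Cartpt, Ucn, Slc6a3 and Th, while the 6 points of Otp lie together.

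Levels of members were compared with each other over the 6 hypothalamus libraries in 28 pairs. By the exact permutation test of Pearson's r, 3 pairs had an unadjusted p under 0.05 and 0 pairs an adjusted p of at most 0.05. By Spearman's rho, 0 pairs had an unadjusted p under 0.05. Agrp and Cartpt had r = 0.91 (exact p = 0.0361) and rho = 0.71 (exact p = 0.136). Agrp and Npy had r = 0.86 (exact p = 0.0486) and rho = 0.77 (exact p = 0.103). Cartpt and Mc4r had r = -0.90 (exact p = 0.025) and rho = -0.77 (exact p = 0.103). Each r had an adjusted p of 0.399 and each rho of 0.752. Without the 2 libraries farthest from the median of the first gene, which hold estrus 3 for each of these pairs, these r were 0.38, 0.57 and -0.51. Leaving out the extremes of a gene narrows its range and tends to lower r, so this check cannot tell how far the r rested on those libraries.

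Beyond the members, the other genes of the feeding circuit showed no called difference between the phases in hypothalamus. Of 28 further feeding peptides, 22 were tested and 0 were called by limma, 1 had an unadjusted p under 0.05 with a higher level in estrus and 0 with a lower level. That gene was Sst (somatostatin), at 379.5, 322 and 326 FPKM in the estrus libraries and 299, 297 and 316 in diestrus, with a log2 difference of 0.17 (adjusted p = 0.357). Vgf and Trh, the other abundant genes of the list, had log2 differences of -0.11 (adjusted p = 0.461) and -0.09 (adjusted p = 0.735). Beside this list and those below, 13.2% of all genes tested had an unadjusted p under 0.05.

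Receptors of feeding peptides were likewise not called. Of 27 tested, 0 were called by limma, 4 had an unadjusted p under 0.05 with a lower level in estrus and 1 with a higher level, and the median log2 difference was -0.05. Of all 13400 genes tested, 748 had such a p with a lower level in estrus and 1023 with a higher level. Galr1, a galanin receptor, was at 1.36, 1.76 and 1.27 FPKM in the estrus libraries and 2.49, 2.27 and 2.00 in diestrus (log2 difference -0.40, adjusted p = 0.257). Cnr1, the cannabinoid receptor that promotes feeding, was at 19.97, 17.9 and 17.3 FPKM against 20.6, 21.2 and 20.6 (log2 difference -0.17, adjusted p = 0.297). Glp1r, which mediates satiety, was at 1.16, 1.18 and 1.42 FPKM against 1.85, 1.66 and 1.58 (log2 difference -0.26, adjusted p = 0.329). The phases overlapped for none of these 3 genes, which were named for their low p. Of the 27 receptors, 5 were lower in estrus without overlap, against 9.64% of all genes tested, and 1 was higher, against 9.96%. Ntrk2 and Htr2c, the receptors with the highest means, had log2 differences of -0.09 (adjusted p = 0.341) and -0.11 (adjusted p = 0.612).

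In leptin signalling, 14 genes were tested, 0 were called by limma, and 2 had an unadjusted p under 0.05, both lower in estrus. Irs2, an adaptor of the insulin and leptin pathways, was at 10.8, 11.3 and 9.65 FPKM in the estrus libraries and 14.1, 13.4 and 12.7 in diestrus (log2 difference -0.32, adjusted p = 0.226). Irs4, an adaptor enriched in hypothalamus, had a log2 difference of -0.17 (adjusted p = 0.351). Socs3, the feedback inhibitor of the leptin receptor, was at 1.04, 2.17 and 1.5 FPKM in the estrus libraries and 1.17, 1.35 and 1.25 in diestrus, with overlap. The abundant genes Ptpn11, Sh2b1 and Leprotl1 had log2 differences of -0.02, -0.03 and -0.01.

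Among 12 genes of prohormone processing, all tested, 0 were called by limma and 1 had an unadjusted p under 0.05. That was Pcsk1, a convertase that cuts the precursors named above, at 16.6, 20.1 and 17.6 FPKM in the estrus libraries and 19.4, 20.4 and 21.3 in diestrus (log2 difference -0.17, adjusted p = 0.376). Cpe, Pcsk1n and Scg2, the most abundant of the list, had log2 differences of 0.06, 0.11 and -0.09. Of 17 hypothalamic transcription factors tested, 0 were called and 1, Arnt2, had an unadjusted p under 0.05, with a log2 difference of -0.11 (adjusted p = 0.304).

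The same genes separated hypothalamus from cerebrum, the other brain tissue. Of the 8 members, 6 were called between the tissues by limma over 12 libraries of 6 mice with phase as a covariate, 5 higher in hypothalamus against 4.73% of the 13280 genes tested and 1 lower against 4.25%. Pmch, Hcrt, Pomc, Cartpt and Agrp were higher in hypothalamus, without overlap of the libraries, against 36.4% of all genes in that direction. Npy was lower in hypothalamus.

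Hcrt was at 0.22 to 0.78 FPKM in the 6 cerebrum libraries, and its log2 difference, hypothalamus minus cerebrum, was 7.62 ± 0.14 (adjusted p = 5.04e-12). Pmch was at 1.17, 16.8 and 2.10 FPKM in cerebrum in estrus and 0.32, 0.77 and 1.2 in diestrus, with a log2 difference of 7.67 ± 0.46 (adjusted p = 2.14e-08). Cerebrum estrus 2 also held the most Avp, at 9.98 FPKM against 0.64 to 3.27, and Prl, at 256 against 5.01 to 68.6. The part of such RNA in its Pmch level was not tested.

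Pomc was at 0.45 to 6.34 FPKM in cerebrum, highest in estrus 2, and its log2 difference was 4.56 ± 0.69 (adjusted p = 6.52e-05), or 4.15 without estrus 2 of both tissues. Cartpt was at 2.02 to 10.3 FPKM in cerebrum (log2 difference 3.78 ± 0.35, adjusted p = 8.29e-07), and Agrp at 0.19 to 0.55 (log2 difference 2.76 ± 0.19, adjusted p = 6.22e-08). For these genes every hypothalamus library exceeded every cerebrum library. The size and order of the differences depended on the 1 added to FPKM, since several cerebrum values were near 0. With 0.1 added instead, the log2 difference was 4.28 for Agrp and 4.01 for Cartpt, and 9.19 for Hcrt and 8.46 for Pmch.

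Npy is made by interneurons of the cortex as well as by arcuate neurons. It was at 100.3, 141 and 136 FPKM in cerebrum in estrus and 205, 142 and 113 in diestrus. Only hypothalamus estrus 3, at 102 FPKM, reached the cerebrum range. The log2 difference was -1.03 ± 0.18 (adjusted p = 0.000234), close to the fold limit, and it fell short of that limit at -0.90 without cerebrum diestrus 1, -0.94 without hypothalamus estrus 2 and -0.98 without hypothalamus diestrus 1.

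Neither receptor was called between the brain tissues. Mc4r was at 0.36 to 1.39 FPKM in cerebrum, overlapping the hypothalamus range, and its log2 difference of 0.44 ± 0.12 (limma adjusted p = 0.00635) was below the fold limit, and was 0.18 (adjusted p = 0.185) under quantile normalization. Lepr was at 0.85 to 1.41 FPKM, also with overlap, with a log2 difference of 0.16 ± 0.08 (limma adjusted p = 0.0819) that was -0.10 (adjusted p = 0.222) under the same normalization. The median log2 difference of all genes tested was 0.17 in FPKM and 0.09 after scaling to TPM, and that of the members was 3.27.

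The phase difference itself did not differ between hypothalamus and cerebrum by a call for any member: limma's interaction term called 0 of 8 members, against 0% of all genes, and 3.93% of all genes had an unadjusted p under 0.05. Hcrt had an unadjusted p of 0.0138 and Pmch of 0.0559, each with an adjusted p of 0.999.

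**Figure D3:**
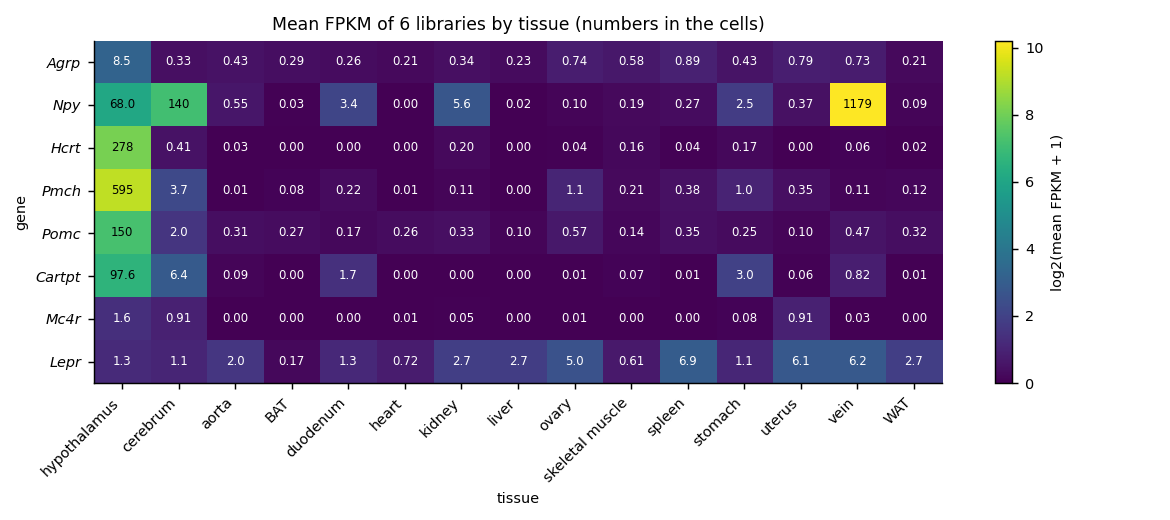
Each cell gives the mean FPKM of 6 libraries for 1 gene (rows) in 1 tissue (columns), coloured by log2(mean FPKM + 1). Hcrt, Pmch, Pomc, Cartpt, Agrp and Mc4r have their highest mean in hypothalamus, Npy in vein at 1179 FPKM, and Lepr in spleen at 6.89.

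Across the 15 tissues, the lateral hypothalamic peptides had hypothalamus levels that did not overlap those of any other tissue. Hcrt averaged 278 FPKM ± 54.2 (SD, n = 6) in hypothalamus, followed by cerebrum at 0.41, and no other tissue exceeded a mean of 0.2. Pmch averaged 595 ± 75.5 in hypothalamus, then 3.72 in cerebrum, 1.07 in ovary and 1.04 in stomach. The levels in cerebrum, ovary and stomach overlapped. Parpbp, which shares exon bases with Pmch, was at 1.62 to 3.08 FPKM in ovary and 1.3 to 2.5 in stomach. It was also at 2.68 to 3.36 FPKM in spleen, 0.13 to 3.65 in uterus and 0.2 to 3.28 in duodenum. Pmch reached 0.71, 0.95 and 0.75 FPKM in those tissues. The part of Parpbp in these low Pmch values was not tested.

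Agrp averaged 8.47 FPKM ± 3.77 in hypothalamus, and all 6 libraries exceeded the 0.4 to 1.55 FPKM of spleen, the next tissue. Spleen, uterus, ovary and vein, at means of 0.73 to 0.89, overlapped. A single uterus library, estrus 3, was at 3.85 FPKM of Agrp against 0.08 to 0.28 in the other 5. Mc4r averaged 1.58 FPKM in hypothalamus, 0.91 in uterus and 0.91 in cerebrum. The uterus mean rested on diestrus 2 at 4.42 FPKM, while the others were at 0 to 0.48, and the ranges of hypothalamus, uterus and cerebrum overlapped, with the limma value of hypothalamus against cerebrum given above.

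Pomc averaged 150.2 FPKM in hypothalamus and 2.01 in cerebrum, and no further tissue exceeded a mean of 0.57. Cartpt averaged 97.6 ± 51.1 in hypothalamus, 6.45 in cerebrum, 2.96 in stomach and 1.68 in duodenum, the latter 3 overlapping. Stomach estrus 1 was at 13.6 FPKM of Cartpt against 0.14 to 1.85 in the other stomach libraries, and duodenum estrus 1 at 7.11 against 0.28 to 0.99. Stomach estrus 1 also held the most Npy, at 9.92 FPKM against 0.52 to 1.59.

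Neurons of the gut wall, which lie between muscle layers, make both peptides. In stomach estrus 1 the summed FPKM of 7 genes of enteric and sympathetic neurons was 60.5 against 1.89 to 10.9 in the others, with Vip at 11.4 against 0.04 to 1.15. The summed FPKM of 6 smooth muscle genes, a list chosen after the values were seen, was 6797 in that library against 329 to 2315. In duodenum estrus 1 the same sums were 39.7 against 6.97 to 19.2 and 2498 against 240.4 to 635. Hand2, a gene of the neuron list also at 51.5 to 80.4 FPKM in heart, held 38.0 of the stomach sum and 23.45 of the duodenum sum. In stomach estrus 1 Prph was at 7.39 against 0.07 to 0.67, whereas Dbh, at 0.18, lay within the range of 0.03 to 0.28. In duodenum estrus 1 Vip, at 9.14, lay within the range of 1.71 to 10.7. The part of neuronal and muscle RNA in the Cartpt and Npy levels was not tested.

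Npy was highest in vein. The vein libraries were at 1644, 619 and 768 FPKM in the estrus libraries and 1273, 1359 and 1413 in diestrus, a mean of 1179 ± 399 (SD, n = 6). The lowest vein library exceeded the highest of any other tissue, 205 FPKM in cerebrum. Cerebrum at 139.6 and hypothalamus at 68.0 followed with overlap, and kidney at 5.64, duodenum at 3.35 and stomach at 2.55 formed an overlapping group below them. Aorta, the other vessel, was at 0 to 1.11 FPKM.

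Genes of noradrenergic neurons, the postganglionic sympathetic cells that store Npy with noradrenaline, were high in the same vein libraries. Dbh, the enzyme that makes noradrenaline, was at 745, 346 and 337 FPKM in the estrus libraries and 694, 553 and 689 in diestrus. Th, the rate-limiting enzyme of catecholamine synthesis, was at 173 to 402 FPKM, and the transcription factor Phox2a at 24.0 to 57.9. In aorta, Dbh was at 0 to 0.81 FPKM and Th at 0.05 to 0.4.

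The ratio of Npy to Dbh in vein ran from 1.79 to 2.46, a range of 1.37-fold, while Npy itself ranged 2.66-fold. This was the narrowest of the ratios computed, and those of Npy to Th, Prph, Hand2 and Phox2a ranged 1.43-fold to 1.51-fold. Pnmt, the enzyme of adrenal adrenaline cells, was at 0 to 0.39 FPKM in vein, and Cyp11b2, of the adrenal cortex, was at 0 in all 6 libraries. Cyp11b1, also of the adrenal cortex, was at 0.21 to 0.63 FPKM in vein and 0 to 0.11 in aorta. The summed FPKM of 7 genes of enteric and sympathetic neurons was 568 to 1207 in vein and 1.28 to 7.64 in aorta. The share of neuronal or adrenal RNA in these libraries was not tested.

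**Figure D4:**
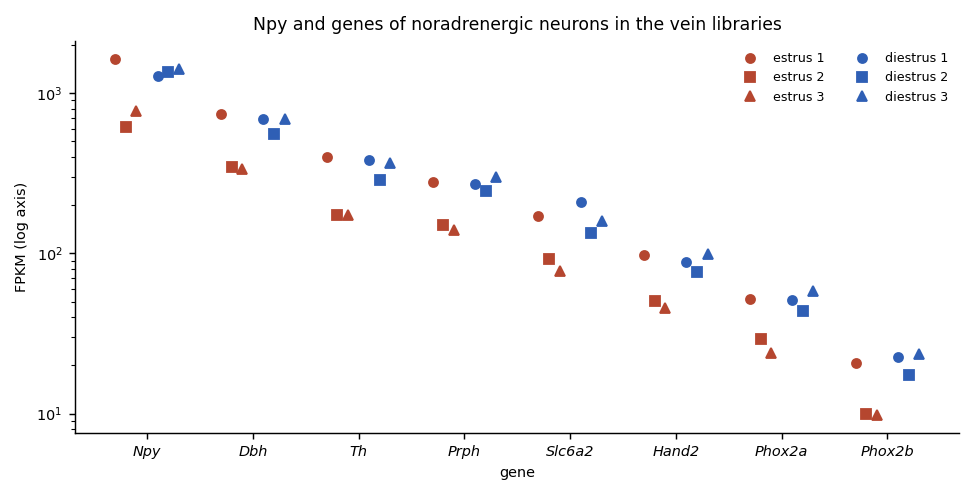
The FPKM of Npy and of 7 genes of noradrenergic neurons is plotted on a log axis for each vein library, estrus in red and diestrus in blue, with circles, squares and triangles for replicates 1 to 3. Estrus 2 and estrus 3 lie below the other 4 libraries for each gene shown, Npy included, with Npy at 619 and 768 FPKM against 1273 to 1644.

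Between the phases, Npy in vein had a log2 difference of -0.55 ± 0.36 (limma adjusted p = 0.498), and estrus 1 was the highest of the 6 libraries. Without estrus 1 the difference was -0.96 (adjusted p = 0.0835), and without estrus 2 it was -0.26 (adjusted p = 0.849). The noradrenergic genes were lowest in the same libraries, where the summed FPKM of 8 such genes, a list chosen after the values were seen, was 422 and 435 in estrus 3 and estrus 2 and 672 to 963 in the other 4. The part of nerve content in the Npy difference was not tested.

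Lepr averaged at least 1 FPKM in 12 of the 15 tissues. Its mean was 6.89 FPKM in spleen, 6.22 in vein, 6.05 in uterus, 5.0 in ovary, 2.72 in WAT, 2.71 in kidney, 2.65 in liver and 2.03 in aorta. Hypothalamus came next at 1.35, above duodenum at 1.26, stomach at 1.14 and cerebrum at 1.11, and the lowest mean was 0.167 in BAT. Each tissue overlapped the next in this order. The values pool the 7 annotated Lepr transcripts, of 208 to 5542 bases, so the order need not be that of any single form. The lowest spleen library, at 5.92 FPKM, was above the highest libraries of kidney (5.51), liver (3.93) and hypothalamus (1.57).

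Outside hypothalamus, 23 pairs of a member and a tissue had a mean of at least 1 FPKM, and 0 of them were called between the phases when each tissue was fitted on its own by limma. Of all genes tested there, 0.00798% were called in spleen and 0% in each of the other 10 tissues with such a pair. The phases did not overlap in 4 pairs. Lepr in ovary was at 6.77, 5.06 and 7.36 FPKM in the estrus libraries and 3.8, 3.08 and 3.95 in diestrus, with all estrus libraries above all diestrus libraries, as for 8.13% of the genes tested in ovary. The log2 difference was 0.67 ± 0.16 (limma adjusted p = 0.747), and it was 0.58 to 0.81 when each library was left out in turn.

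Lepr in WAT was at 9.31, 1.82 and 2.17 FPKM in the estrus libraries and 1.10, 0.94 and 0.95 in diestrus, without overlap, as for 9.25% of genes in that direction. Its log2 difference was 1.18 ± 0.46 (limma adjusted p = 0.791), and 0.58 without estrus 1. WAT estrus 1 held Acta2, a smooth muscle actin, at 685 FPKM against 32.4 to 77.9 in the other libraries, and summed smooth muscle genes at 2905 against 114 to 288. Without that library the sums were 255 and 288 in estrus and 114 to 183 in diestrus, and their part in the Lepr levels was not tested. Aorta estrus 1, at 5.20 FPKM of Lepr against 1.05 to 1.68, held Acta2 at 7925 FPKM against 669 to 1152. Myh11, another smooth muscle gene, was at 1669 FPKM there against 190.5 to 316. Des, also a muscle gene, was instead lowest there, at 30.1 against 86.2 to 138. The part of muscle RNA in the aorta Lepr level was not tested.

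In duodenum both Npy and Lepr were lower in estrus without overlap, as for 22.1% of genes tested there. Npy was at 2.94, 0.56 and 1.97 FPKM in the estrus libraries and 5.24, 6.25 and 3.16 in diestrus (log2 difference -1.12 ± 0.39, limma adjusted p = 0.368). Lepr was at 0.91, 0.75 and 1.11 FPKM in the estrus libraries and 1.57, 1.86 and 1.34 in diestrus (log2 difference -0.43 ± 0.21, adjusted p = 0.387). Vip, of gut neurons, was at 9.14, 1.71 and 5.09 FPKM in the estrus libraries and 10.1, 10.7 and 10.3 in diestrus, in the same direction as Npy. Other genes of the enteric and sympathetic list were highest in estrus 1, with Hand2 at 23.45 FPKM against 1.48 to 4.34, Prph at 4.65 against 1.51 to 3.5 and Elavl4 at 0.99 against 0.45 to 0.67. The part of neuronal RNA in the Npy difference was not tested.

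**Figure D5:**
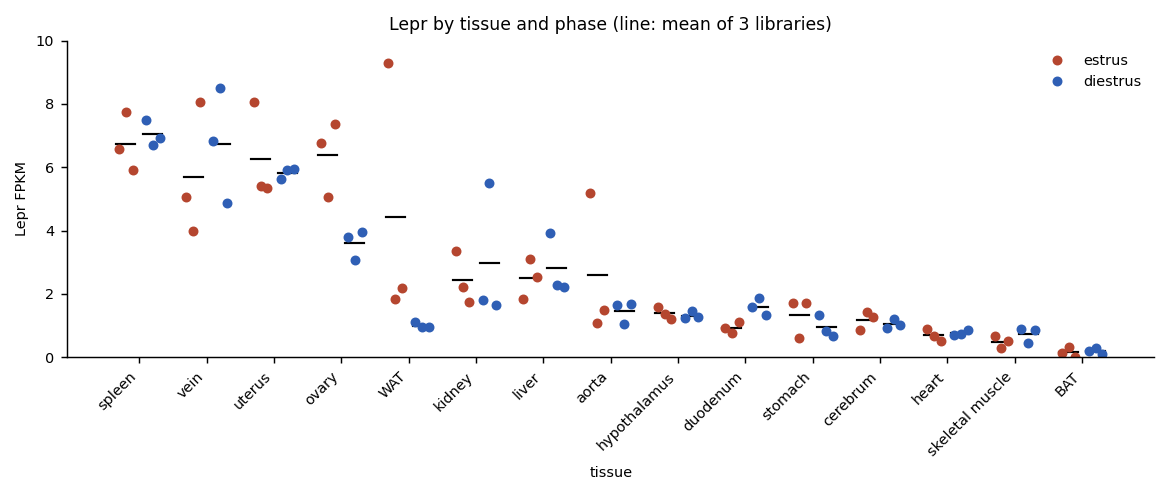
Each point is the Lepr FPKM of 1 library, estrus in red and diestrus in blue, with a line at the mean of 3 libraries, and tissues are ordered by their mean. The ovary points of estrus lie above those of diestrus (5.06 to 7.36 against 3.08 to 3.95), and WAT estrus 1 stands apart at 9.31.

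The genes most like each member were found from Pearson's r of log2(FPKM + 1) over the 15 tissue means, as a description, since the means share libraries and depth and few tissues set the pattern. For Hcrt they were Fezf1, Otp and Brs3 (each r = 0.999), and 63 genes reached r of at least 0.95. For Pmch they were Vax1 (r = 0.991), Sox14 and Gsx1 (each r = 0.990), and for Pomc Dgkk (r = 0.998), Sox14 and 6430628N08Rik (each r = 0.996). Each of these genes had its highest mean in hypothalamus.

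The other members had fewer close matches. For Agrp the most alike were Prr19 (r = 0.967), Gm34066 (r = 0.963) and Krt90 (r = 0.961), for Cartpt Zfp92 (r = 0.962), Efcab15 and Plpp4 (each r = 0.957), and for Mc4r Pth2r (r = 0.985), BC030500 (r = 0.983) and Syt6 (r = 0.977). For Npy they were Rab3b (r = 0.981), Cyp2j12 (r = 0.958) and Matn4 (r = 0.951), all highest in vein. For Lepr no gene reached 0.95, and the closest were Ino80b (r = 0.905), Mms19 (r = 0.882) and Clca3a1 (r = 0.880).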

How the data were processed

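RNA of 15 tissues was sequenced in 90 libraries (3 per tissue and phase). The authors filtered reads with SOAPnuke, aligned them to GRCm38.p5 with Bowtie2 2.2.5 and deposited gene-level FPKM from RSEM 1.2.8 (versions from the submitters' processing notes); counts were not used here. The header names no unit; FPKM was read from the methods and the values. Of 20414 Entrez identifiers, 20265 matched a RefSeq symbol. Groups came from the labels; by the methods the tissues came from 3 mice per phase, while which number marks which mouse is not stated, so p-values between tissues treat libraries of the same mice as independent, and a fit with phase and number as a block was an alternative. The study's text gives a younger age than the labels.

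Estrus was compared with diestrus within each tissue by limma 3.58.1 (R 4.3.3) with an intensity trend on log2(FPKM + 1), for genes that averaged at least 1 FPKM over the fitted libraries, two-sided, with Benjamini-Hochberg adjustment over all genes tested. A fold change on this scale understates that of low genes. Calls needed an absolute log2 fold change of 1 and an adjusted p of 0.05. The procedure was tested on simulated data. Members and lists were chosen with earlier results of these data known; lists of midbrain, noradrenergic, adrenal and smooth muscle genes were added after the values were seen. Summed adrenal markers were 4.72 to 9.29 FPKM in vein. Named genes were the members, the 3 most abundant and up to 3 with the lowest p under 0.05 of each list, the marker genes farthest from the other libraries, and the 3 most alike; Socs3 and the genes given with vein, stomach, WAT and aorta were chosen after their values were seen. Depth was approximated from 840 genes with transcripts of 300 to 1100 bases; 51.9% to 70.0% of values up to 10 reads came within 0.2 of a whole read, so counts were not recovered and limits of 0 values are not given. Replicate numbers were not used as pairs. Other computations used Python 3.11.15, numpy 2.4.6, pandas 2.3.3, scipy 1.17.1 and matplotlib 3.10.9. Alternatives are given in the closing section.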

Additional observations from a re-analysis of the deposited data

Results flagged for a closer look

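The phase difference of Lepr pointed in opposite directions in different tissues, with every estrus library on one side of every diestrus library in each. It was higher in estrus in ovary and lower in estrus in duodenum, and the log2 fold changes differed by 1.10. In WAT it was also higher in estrus, and the log2 fold changes of WAT and duodenum differed by 1.61. The differences between tissues were not tested. These tissues were picked by the lack of overlap itself, among the 12 where Lepr averaged at least 1 FPKM. The same separation and direction held for 8.13% of genes tested in ovary, 9.25% in WAT and 22.1% in duodenum. Lepr was called in none of them, with limma adjusted p of 0.747, 0.791 and 0.387. The WAT value rested in part on estrus 1, without which its log2 fold change was 0.58.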

How the results depend on the processing

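The comparisons were recomputed under pseudocounts of 0.1 and 0.5, without the filter, after scaling to TPM or quantile normalization, with the replicate number as a block, with no fold limit, without each library in turn and, for the phase comparisons within tissues, in one fit of 90 libraries. The count of members called between the phases in hypothalamus was 0 in all 14 alternatives. The count over all genes was 0, and 4 in one fit of 90 libraries (Prl, Gh, Cga and En1) and without hypothalamus estrus 2 (Pvalb, Kcng4, Irx2 and Scn4b), so that leaving out 1 library gave 0 to 4. In the other 14 tissues the count of pairs was 0, and 3 in one fit of 90 libraries: Pmch in cerebrum (log2 difference 1.51, adjusted p = 0.0087), Npy in duodenum (-1.12, adjusted p = 0.0281) and Lepr in WAT (1.18, adjusted p = 0.036). Pmch in cerebrum was 0.59 without estrus 2. The cause was not tested. Members called between hypothalamus and cerebrum numbered 5 to 7, where Npy was lost at 5 and Mc4r gained without a fold limit. The Npy difference between phases in hypothalamus was 0.32 without estrus 2, -0.19 without estrus 3 and -0.011 without estrus 2 and 3, a choice made after seeing the data, and that of Lepr was 0.095 without estrus 3, -0.014 without estrus 1 and -0.0093 under quantile normalization. Leaving out 1 library moved the log2 difference of Pomc between 0.20 and 2.31, of Agrp between 0.08 and 0.67 and of Cartpt between 0.08 and 0.77; those of Hcrt (-0.50 to -0.23), Pmch (-0.32 to -0.15, the latter without diestrus 3) and Mc4r (-0.47 to -0.22, the latter without estrus 3) stayed negative. With the replicate block, 0 members and 0 genes were called between the phases and 6 members between the tissues, and it changed no other call. Same-numbered hypothalamus libraries of the phases did not deviate together (r = -0.16, -0.02 and -0.11). Hypothalamus and cerebrum libraries of one phase and number had r of 0.08, 0.08 and 0.02 in estrus and 0.13, 0.20 and 0.22 in diestrus, all positive and 3 of 6 over 0.1. Prl and Gh were highest in estrus 2 of both tissues, and Slc6a3 and Th in estrus 3 of both. Whether equal numbers mark one mouse was not settled, and the main fit did not pair them. With the block, the SE between the tissues fell from 0.69 to 0.33 for Pomc and from 0.35 to 0.23 for Cartpt. It rose only for Lepr, from 0.078 to 0.083. With 3 libraries per group and FPKM without counts, depth limits statements on members near 1 FPKM.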

Other observations

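Hypothalamus estrus 1 and estrus 3 held higher levels of 3 genes than the other 4 hypothalamus libraries. Pvalb, the calcium buffer of fast-spiking neurons, was at 69.4 and 60.1 FPKM in them and at 25.5 to 26.9 in the other 4 libraries. Kcng4, a potassium channel subunit, was at 4.46 and 4.35 FPKM against 0.93 to 1.26, and the transcription factor Irx2 was at 3.46 and 3.39 against 1.08 to 1.28. These genes were among those called without estrus 2 and were chosen after their values were seen. Slc17a7, a glutamate transporter of cortical neurons, was at 21.2 FPKM in estrus 1 and 2.60 to 6.12 in the others.

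Kidney diestrus 2 held the highest kidney level of Npy, at 13.5 FPKM against 2.11 to 5.63, together with the highest Lepr, at 5.51 against 1.64 to 3.36, and the highest Npy1r, an Npy receptor, at 12.3 against 2.01 to 4.32. Of the genes of sympathetic neurons, Dbh was at 0 to 0.06 FPKM and Th at 0 across the kidney libraries. Their values of 0 in diestrus 2 therefore do not set that library apart. The source of its Npy level was not tested. These genes were chosen after their values were seen.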
